A study of Rattus norvegicus with 6 samples.

Results

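The miR-34 family was followed through 6 microRNA (miRNA) arrays of rat primary skeletal muscle cells, with or without interleukin-8 (IL-8). Its members are the 6 mature arms of Mir34a, Mir34b and Mir34c, taken by name from 719 rat miRNAs on the array: rno-miR-34a-5p, rno-miR-34a-3p, rno-miR-34b-5p, rno-miR-34b-3p, rno-miR-34c-5p and rno-miR-34c-3p, written below without the species prefix. The cells came from newborn limb muscle and differentiated for 11 days in 2% horse serum. The control group (n = 3 samples) is labelled as receiving no agent, and the other group (n = 3 samples) received recombinant IL-8, a neutrophil-attracting chemokine, at 1 ng/ml. The growth protocol describes IL-8 for all samples, so the grouping rests on titles, agent labels and the design text. The comparison asked whether IL-8 alters miRNA levels in differentiating muscle cells, and for this family whether the miR-34b/c locus and miR-34a moved alike. The family was chosen with the IL-8 against control changes known, so its changes are given as a description, without p-values.

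The family is best known as a set of effectors of p53. When p53 is activated it binds near the Mir34 genes and raises their transcription, and the mature miRNAs repress messengers that drive the cell cycle and survival, such as those of cyclins, Met and Bcl2. Mir34a is transcribed on its own and is expressed in many tissues. Mir34b and Mir34c share a primary transcript and are known for high levels in ciliated epithelium and testis. Each gene gives a hairpin from which a 5p arm and a 3p arm are cut.

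The mature sequences, from RefSeq (build GRCr8), show which arms can share targets. Capitals mark the seed, bases 2 to 8 from the 5′ end, through which a miRNA mainly recognises its targets.
miR-34a-5p: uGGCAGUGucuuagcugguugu
miR-34b-5p: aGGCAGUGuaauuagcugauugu
miR-34c-5p: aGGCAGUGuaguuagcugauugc
miR-34a-3p: aAUCAGCAaguauacugcccua
miR-34b-3p: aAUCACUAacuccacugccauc
miR-34c-3p: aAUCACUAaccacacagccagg
miR-449a-5p: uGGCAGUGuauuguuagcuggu
All 6 members matched a RefSeq entry. The 3 5p arms carry the seed GGCAGUG, which in the RefSeq table is otherwise found in miR-449a-5p and miR-449c-5p alone. The 3p arms of miR-34b and miR-34c share a seed with each other and not with miR-34a-3p. Counted from the 5′ end, miR-34b-5p and miR-34c-5p differ by 2 substitutions, A11G and U23C, with miR-34b-5p as the reference. In an alignment of 23 columns miR-34a-5p shares 19 bases with miR-34b-5p and 18 with miR-34c-5p.

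The hairpins show where the arms lie at the 2 loci, with the mature arms in capitals.
Mir34a: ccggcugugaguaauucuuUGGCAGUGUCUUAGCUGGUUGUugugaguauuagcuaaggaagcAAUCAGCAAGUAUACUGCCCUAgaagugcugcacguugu
Mir34b: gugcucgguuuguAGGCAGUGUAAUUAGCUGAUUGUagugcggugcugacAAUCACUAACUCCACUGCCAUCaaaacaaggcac
Mir34c: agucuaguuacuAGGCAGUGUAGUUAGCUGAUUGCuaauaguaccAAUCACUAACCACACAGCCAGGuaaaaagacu
In GRCr8 the Mir34a hairpin spans chr5:165815952-165816053 on the plus strand. Mir34b spans chr8:60306609-60306692 and Mir34c chr8:60306091-60306167, both on the minus strand, with 441 bases between them. In the RefSeq gene table Mir34a lies within the span of the long non-coding RNA gene LOC103692514. Mir34c lies within the span of Hoatz and Mir34b overlaps its end, with Btg4 as the next protein-coding neighbour. Exons and introns at these positions were not analysed here. The array files use the older build rn4 and place the miR-34a probes on chromosome 5 between 167187919 and 167187981. They place the miR-34b and miR-34c probes on chromosome 8 between 54422068 and 54422641.

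Each array carried 15095 spots, and 154 to 180 miRNAs per array were well above background by the scanner software's call for a majority of a probe's spots. Of the 719 miRNAs, 167 entered the test, and array pairs correlated over them at r = 0.992 to 0.999 (a correlation across miRNAs, which are no replicates). The control arrays shared 1 slide and scan and the IL-8 arrays a different slide and scan, so a slide effect and an IL-8 effect cannot be told apart in any result. The labels do not say that samples came from separate cultures, so the spread between samples may be technical. None of 7 striated muscle markers (miR-1-3p, miR-133a-3p, miR-133b-3p, miR-206-3p, miR-208a-3p, miR-208b-3p and miR-499-5p) was well above background on any array. All 6 fibroblast and smooth muscle markers were. Of ciliated epithelium, epithelium, blood and neural markers, 0 of 2, 0 of 5, 0 of 4 and 0 of 2 were well above background on any array.

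Before any scaling between arrays, the signals of both miR-34a arms were higher with IL-8 while those of miR-34b-5p and miR-34c-5p were not. The 20-base probe of miR-34a-5p, the guide arm of that hairpin, gave processed signals of 2203, 2396 and 2668 in control replicates 1, 2 and 3. With IL-8 it gave 2830, 2818 and 2891 in replicates 1, 2 and 3. Every IL-8 array was brighter than every control array, at means of 2846 ± 39.3 (SD, n = 3) and 2422 ± 234 (SD, n = 3). In these bulk samples, more cells of a type and more miRNA per cell cannot be told apart.

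For miR-34a-3p, the passenger arm of the same hairpin, the 18-base probe gave 21.3, 23.9 and 24.4 in control replicates 1, 2 and 3. The IL-8 arrays gave 31.4, 31.2 and 30.1. The groups did not overlap here either, but this is a dim probe: the lowest signal of any probe called well above background lay between 12.3 and 17.1 on the 6 arrays.

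The 22-base probe of miR-34b-5p gave 126, 149 and 175 in control replicates 1, 2 and 3, and 150.4, 147 and 144 in IL-8 replicates 1, 2 and 3. The 20-base probe of miR-34c-5p gave 108, 125 and 133 in the controls, and 120.3, 118 and 114 with IL-8. For both, all IL-8 values lay inside the range of the control values. Both arms were spread more widely among the controls, where replicate 1 was the dimmest and replicate 3 the brightest for all 4 probes described here.

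**Figure D1:**
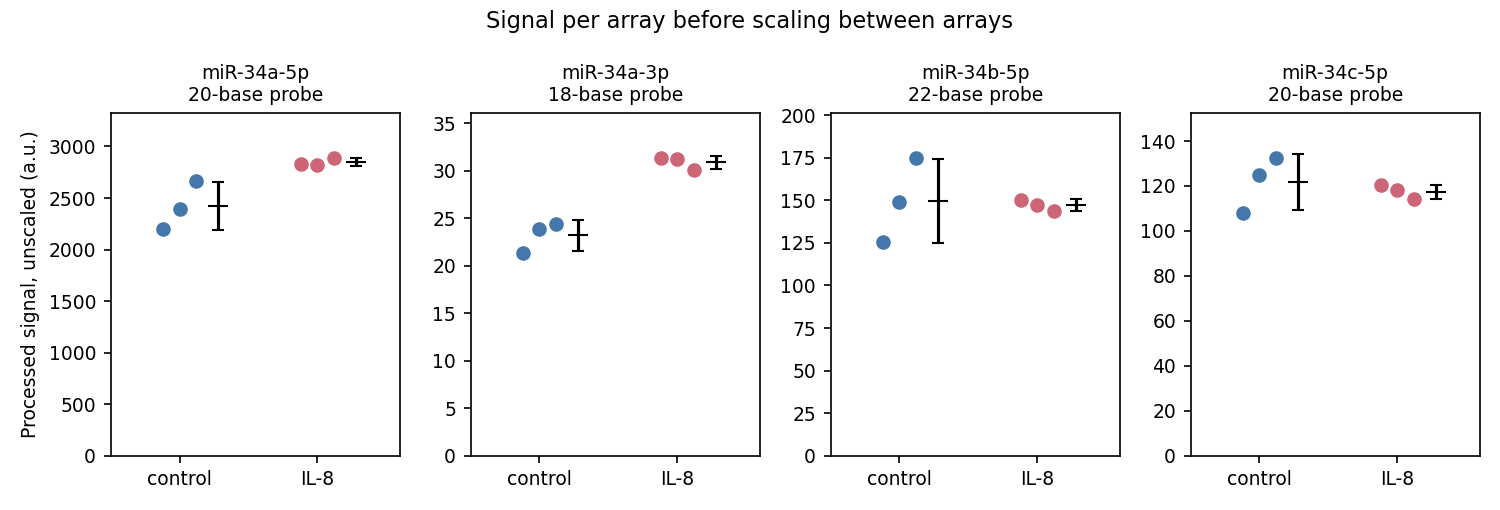
Processed signal before scaling between arrays (linear axis from 0, arbitrary units) for the longer used probe of each measured arm, with 1 point per array and the mean ± SD of each group beside the points. miR-34a-5p and miR-34a-3p were higher on all 3 IL-8 arrays, while the IL-8 points of miR-34b-5p and miR-34c-5p lie inside the control range.

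The IL-8 arrays were brighter as a whole. The 75th percentile of signal over 264 brighter probes (those well above background on each array) was 440.1 to 497 on the control arrays and 540 to 569 on the IL-8 arrays. Without scaling, the median log2 change over the 167 tested miRNAs was 0.25. miR-34a-5p had the same unscaled change, 0.25, and miR-34a-3p had 0.41. miR-34b-5p and miR-34c-5p had unscaled changes of -0.021 and -0.022. Scaling by spike-in controls gave a median of 0.21 over all miRNAs and changes of -0.064 for miR-34b-5p and -0.066 for miR-34c-5p.

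Levels were then set relative to the 75th percentile of each array, and all following levels are log2 values on that scale. The used probes of all 4 measured members were well above background on all 6 arrays, so none entered through 1 group. miR-34c-5p had levels of -2.51, -2.40 and -2.36 in control replicates 1, 2 and 3. With IL-8 its levels were -2.66, -2.64 and -2.73. Each IL-8 array lay below each control array. The log2 change was -0.26 ± 0.06 (SE; 95% interval -0.40 to -0.11), a level 0.838-fold that of control.

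miR-34b-5p, cut from the neighbouring hairpin, had control levels of -2.28, -2.11 and -1.94 and IL-8 levels of -2.37, -2.37 and -2.35. Its log2 change was -0.25 ± 0.09 (SE; 95% interval -0.46 to -0.05), or 0.839-fold. The groups did not overlap, but the nearest arrays were 0.066 apart, and the size leaned on the brightest control. Without control replicate 3 the change was -0.16, and without control replicate 1 it was -0.32.

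miR-34a-5p had control levels of 1.95, 2.01 and 2.08 and IL-8 levels of 1.99, 2.06 and 2.05, which overlap. Its log2 change of 0.019 ± 0.06 (SE; 95% interval -0.12 to 0.16) equals a fold of 0.922 to 1.11 at the ends of the interval. The value was below 0 under 3 of the other scalings, at -0.079 with the percentile over all probes, -0.014 with median scaling and -0.017 with quantile normalization.

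miR-34a-3p had levels of -4.37, -4.32 and -4.35 in control and -4.18, -4.14 and -4.17 with IL-8. The log2 change was 0.18 ± 0.05 (SE; 95% interval 0.06 to 0.30), or 1.13-fold, with each IL-8 array above each control array. It turned to -0.073 with the normexp background. That setting applies another background correction to the mean spot signals and adds an offset of 50 to every spot. The offset is more than the processed signal of either miR-34a-3p probe on any array, but its part in the turn was not tested.

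**Figure D2:**
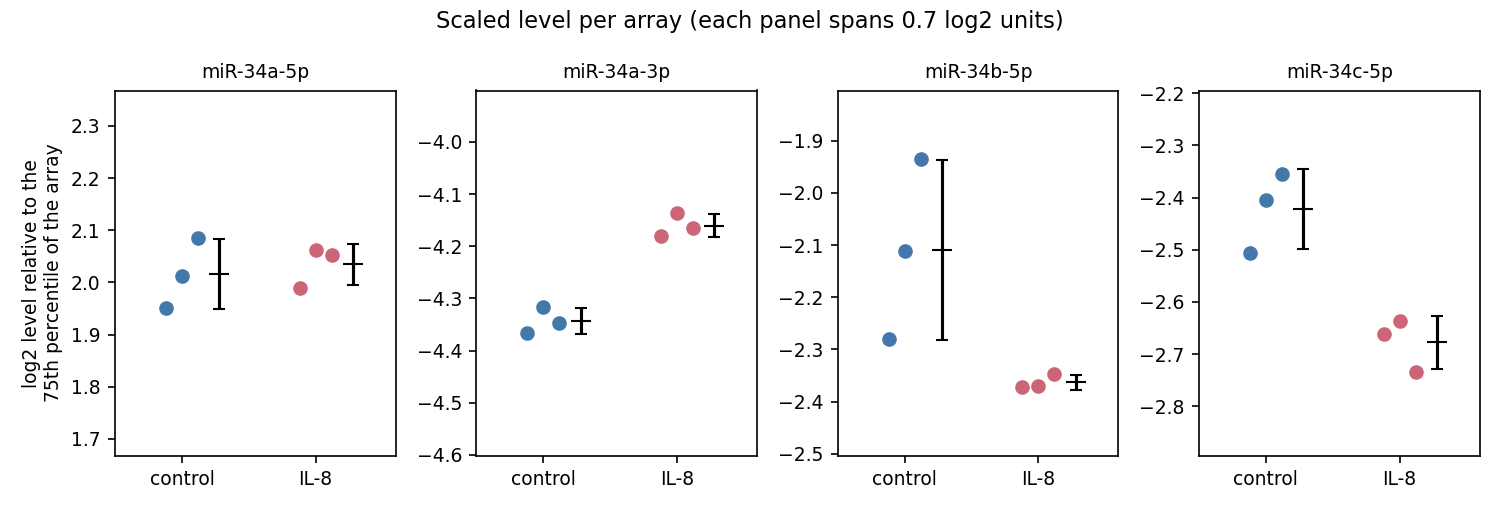
log2 level relative to the 75th percentile of each array for the 4 measured arms, with 1 point per array, the mean ± SD of each group beside the points, and the same span on each vertical axis. miR-34b-5p and miR-34c-5p sat lower on all IL-8 arrays, miR-34a-3p higher, and the groups of miR-34a-5p overlapped.

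Among all 167 tested miRNAs ordered by change, miR-34c-5p was the 11th from the lowest and miR-34b-5p the 12th. miR-34a-5p was the 85th, near the middle, and miR-34a-3p the 26th from the highest. The median change over all tested miRNAs was 0.019. By limma with Benjamini-Hochberg adjustment over the 167 miRNAs, 12 (7.19%) passed the threshold of 0.05, 6 higher (3.59%) and 6 lower (3.59%). Of the 4 measured members, 0 passed, and 3 had an unadjusted p under 0.05, as did 25.1% of all tested miRNAs. For 3 of the 4 members the groups did not overlap, against 29.9% of all tested miRNAs. These were 2 lower members, against 13.8% of all tested miRNAs, and 1 higher member, against 16.2%. Since these changes were known when the family was chosen, nothing is read from the members' counts. The number and split of calls depended on scaling: 52, all higher, without scaling, 46, of which 45 were higher, with spike-ins, and 0 with the percentile over all probes, where 9 had an unadjusted p under 0.05.

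**Figure D3:**
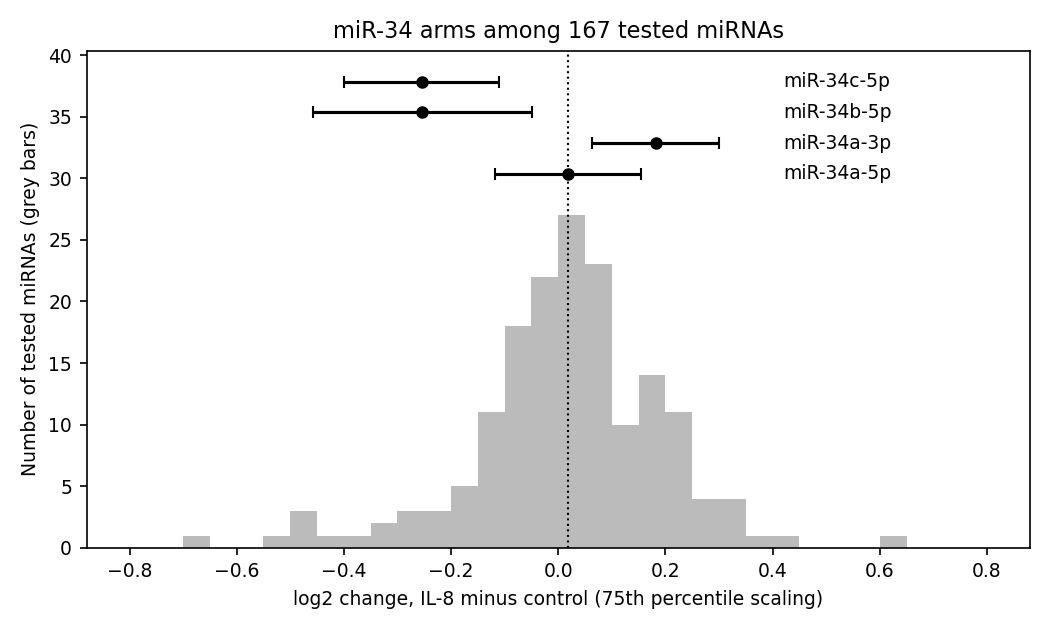
Histogram of log2 changes (IL-8 minus control, 75th percentile scaling) over 167 tested miRNAs, with the 4 measured miR-34 arms drawn above as points with 95% intervals and a dotted line at the median of all tested miRNAs. miR-34b-5p and miR-34c-5p lie in the lower tail near -0.25, miR-34a-5p at the median and miR-34a-3p to the right of it.

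A difference between 2 arms within an array does not move when the whole array is multiplied by a constant, so it does not depend on the choice of such a scaling. It shows unequal change, not which arm changed. Levels of different probes are not comparable, so only the shift between groups is described. The difference miR-34c-5p minus miR-34a-5p was -4.46, -4.42 and -4.44 on control arrays 1, 2 and 3. On the IL-8 arrays it was -4.65, -4.70 and -4.79. All IL-8 arrays lay below all control arrays, and the group means, -4.44 ± 0.02 (SD, n = 3) and -4.71 ± 0.07 (SD, n = 3), differed by -0.27, or 0.827-fold.

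For miR-34b-5p minus miR-34a-5p the values were -4.23, -4.12 and -4.02 in control and -4.36, -4.43 and -4.40 with IL-8. The groups were again apart, by a mean of -0.27 (0.828-fold). miR-34c-5p minus miR-34b-5p, from the same locus, was -0.22, -0.29 and -0.42 in control and -0.29, -0.27 and -0.39 with IL-8. These overlapped fully, and the means differed by -0.0015. miR-34b-5p and miR-34c-5p also followed each other over the 6 arrays at r = 0.91, as a description of arrays that share the group difference and the scaling.

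The means over the measured arms gave the contrast of the loci. These were the 5p arms of miR-34b/c, and the 5p arm and dim 3p arm of miR-34a, so the loci were not compared arm for arm. Against miR-34a-5p alone the shifts were smaller, at -0.27 for miR-34b-5p and for miR-34c-5p. The mean of miR-34b-5p and miR-34c-5p minus that of the miR-34a arms was -1.19, -1.11 and -1.01 in control and -1.42, -1.47 and -1.48 with IL-8. The shift was -0.35, or 0.782-fold, and the groups did not overlap. Leaving out any 1 array gave -0.40 to -0.31. Of the 20 alternatives, 9 left it unmoved: a constant scaling per array cannot change a difference within an array, and the floors, the filter on all 6 arrays, the replicate block and the deposited total probe signal left these arms' values as they were. The other 11 gave -0.54 (total gene signal) to -0.19 (normexp background).

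**Figure D4:**
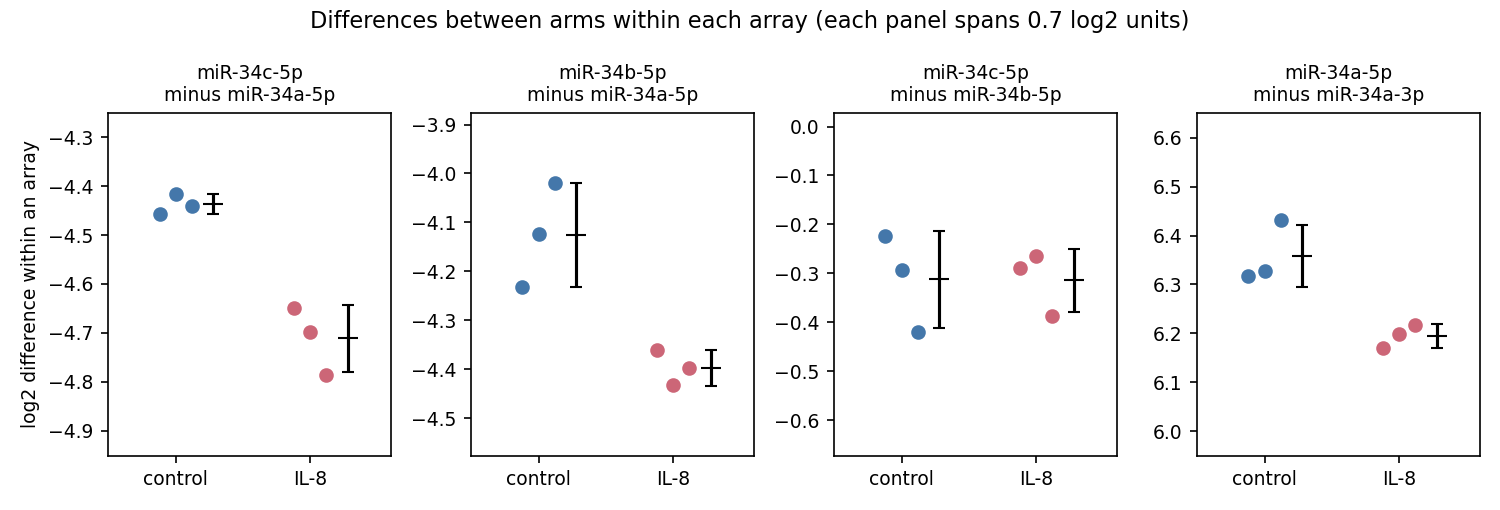
log2 differences between pairs of miR-34 arms within each array, with 1 point per array, the mean ± SD of each group beside the points, and the same span on each vertical axis. miR-34c-5p and miR-34b-5p were lower relative to miR-34a-5p on all IL-8 arrays, the pair from the miR-34b/c locus overlapped, and miR-34a-5p was lower relative to miR-34a-3p with IL-8.

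The shift can be split by probe, from the same spots and arrays, so the pairings are no further evidence for it. Of the 8 pairings of a miR-34b-5p or miR-34c-5p probe with a miR-34a-5p probe, 8 had all IL-8 arrays below all control arrays, with shifts of -0.31 to -0.23. Against the single used miR-34a-3p probe, 4 of 4 pairings did so, with shifts of -0.46 to -0.41. The pairings share probes and arrays and are not independent. The shorter probe of each arm lies within the longer, and the probes of the b and c arms are close in sequence. They are shown in 5′ to 3′ order, with capitals at the bases that pair with positions 11 and 23, where these arms differ.
miR-34b-5p, 22-base probe: AcaatcagctaaTtacactgcc
miR-34c-5p, 20-base probe: GcaatcagctaaCtacactg
Each probe of one of these arms has 2 mismatches to the other arm, so part of either signal could come from its neighbour and the values are uncertain as separate measurements. Against miR-34a-5p the probes of both arms have 9 or 10 mismatches in an ungapped match, a count that a single gap can inflate. With 1 gap column, the whole miR-34a-5p arm differs from miR-34b-5p in 4 of 23 columns and from miR-34c-5p in 5, the gap included. The miR-34a-5p probes were far brighter, and whether miR-34a-5p adds to the signal of the b and c probes was not tested. Within a probe, the spots of the 5p arms spread by a coefficient of variation of 3.14% to 12.9% on the 6 arrays.

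With the processing used above, the arms of miR-34a did not keep a fixed ratio between the groups. miR-34a-5p minus miR-34a-3p was 6.32, 6.33 and 6.43 in control and 6.17, 6.20 and 6.22 with IL-8, lower on all IL-8 arrays, with a mean shift of -0.16. This rests on the 18-base miR-34a-3p probe, with 58 of its 60 spots over all arrays well above background. The 17-base probe of that arm had 15 of 60, was well above background on 1 IL-8 array only, and was not used. The shift reversed with the normexp background, where miR-34a-5p had a change of 0.035 and miR-34a-3p one of -0.073.

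The 3p arms of the miR-34b/c locus could not be measured. miR-34b-3p had signals from -3.40 to 6.72 over its 2 probes and all arrays, and miR-34c-3p from -14.1 to 1.94 over 4 probes. Neither had any of 120 spots well above background. Background subtraction can place dim probes below 0. The miR-34c-3p probes are short, at 10 to 13 bases. The seed relatives miR-449a-5p and miR-449c-5p were not well above background on any array, with highest probe signals of 3.10 and 0.042. Their 3p arms, miR-449a-3p and miR-449c-3p, did not reach a signal above 0. No IL-8 change of these 6 arms can be given.

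Other miRNAs of the p53 pathway had small changes. Of 13 miRNAs described as raised or processed faster under p53, 12 were on the array, 8 were tested, and 0 passed in either direction by limma, where 7.19% of all tested miRNAs did; nothing follows from 0 of so few. Their median log2 change was -0.032, beside 0.019 over all tested miRNAs, and it lay above 0 without scaling (0.20) and with spike-in scaling (0.16). miR-22-3p, which is induced by p53, had a change of -0.13 and miR-107-3p, encoded in a Pank1 intron, one of -0.12. These were the 2 of 8 whose groups did not overlap, beside 29.9% of all tested miRNAs. miR-145-5p and miR-143-3p, neighbours typical of smooth muscle, had -0.083 and -0.059. miR-16-5p, a repressor of cyclins, had 0.010, and miR-143-5p -0.0057. miR-192-5p and miR-194-5p, clustered miRNAs best known from liver and gut, had -0.0055 and 0.017.

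Of 5 miRNAs described to target the p53 messenger, 3 were tested and 0 passed in either direction by limma, again beside 7.19% of all tested miRNAs. miR-125b-5p had a change of -0.047, miR-25-3p 0.062 and miR-30d-5p 0.054, all with overlapping groups. Their median of 0.054 lay below 0 with the percentile over all probes (-0.043), the normexp background (-0.028) and the brightest probe (-0.015). Of the 11 tested members of these lists none had an unadjusted p under 0.05, beside 25.1% of all tested miRNAs.

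The miRNAs outside the family with the most similar course over the 6 arrays differed between members. For miR-34c-5p they were miR-1949 (r = 0.99), the CREB-responsive miR-132-3p (r = 0.97) and miR-652-3p (r = 0.94). For miR-34b-5p they were miR-23b-3p (r = 0.94), miR-107-3p (r = 0.93) and let-7i-5p (r = 0.93). For miR-34a-5p they were miR-16-5p (r = 0.99), miR-27a-3p (r = 0.97) and miR-21-5p (r = 0.95). For miR-34a-3p they were miR-181a-1-3p (r = 0.97), miR-181a-5p (r = 0.96) and miR-551b-5p (r = 0.96). These are Pearson correlations of levels over 6 arrays that share the slide difference and the scaling, and they describe these arrays only. The closest to miR-34c-5p, miR-1949, had a log2 change of -0.27, and the closest to miR-34a-3p, miR-181a-1-3p, had one of 0.38.

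A scaling by 1 constant per array moves all arms alike and cannot change their order. Of the settings that alter the arms themselves, quantile normalization gave -0.23 for miR-34b-5p, -0.25 for miR-34c-5p, -0.017 for miR-34a-5p and 0.11 for miR-34a-3p. The normexp background gave -0.22, -0.21, 0.035 and -0.073 for these arms, which put miR-34a-3p below miR-34a-5p.

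**Figure D5:**
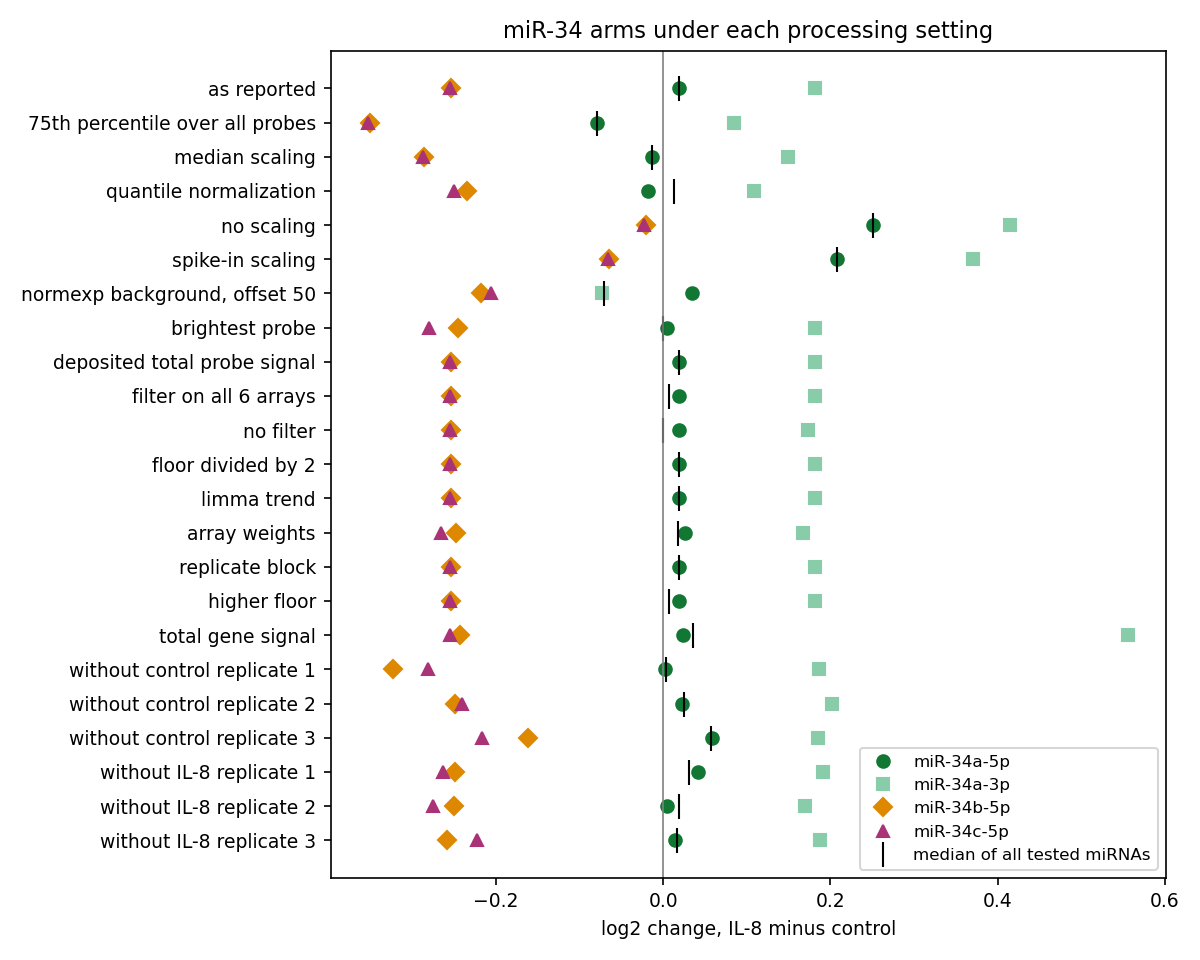
log2 change (IL-8 minus control, horizontal axis) of the 4 measured arms and the median over all tested miRNAs under each processing setting (rows). Constant scalings shift all arms together, so that miR-34b-5p and miR-34c-5p sit near 0 without scaling, at -0.021 and -0.022.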

How the data were processed

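The deposited values are linear spot intensities. Per the file headers and the submitters' processing notes the authors used Agilent Feature Extraction, version 10.10.1.1; it subtracted background and removed spatial trends, and arrays were not scaled to each other. The deposited series value matrix matched the total probe signal of the same software (relative tolerance 0.0001) and is thus linear and uncentred. Column medians were -0.529, -1.35 and -1.17 (control) and 0.307, -0.802 and -1.18 (IL-8). No rat miRNA spot was saturated.

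Spots were averaged per probe without outlier spots, divided by the array's 75th percentile over 264 probes well above background on all arrays, floored at a log2 level of -5.45 (2 of 167 miRNAs had a value there) and log2 transformed. A miRNA was tested, as the mean of its qualifying probes, if a probe qualified as well above background on every array of a group. limma 3.58.1 (lmFit, eBayes; R 4.3.3, version 1.17.8 of data.table) compared IL-8 with control. In simulated data for this comparison over 167 miRNAs, 90% of 20 log2 changes of 0.4 were recovered, with 2 false calls. All members had smaller changes than 0.4 in the fit above, so this does not give the recovery at their size. Sequences were aligned with Biopython 1.88. The number of arrays limits the precision. Members and lists were chosen with earlier results of these data known. Named miRNAs are the members, miR-449 arms, tested p53 list members and, per member, the 3 with the highest r. Alternatives covered scaling, background, probes, filter, floor, limma options and single arrays; 2 (higher floor, total gene signal) were chosen after seeing the data.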

Additional observations from a re-analysis of the deposited data

How the results depend on the processing

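Of the 20 alternatives for the locus contrast, 9 left it unmoved, 4 of them constant scalings, which cannot move it. The other 11 gave -0.54 to -0.19, and 2 of these moved it by more than the spread between replicates: -0.19 with the normexp background and -0.54 with the total gene signal. Leaving out single arrays gave -0.40 to -0.31. The changes of miR-34b-5p and miR-34c-5p depended on the scaling: they were -0.021 and -0.022 without scaling, -0.064 and -0.066 with spike-ins, -0.29 for each with median scaling and -0.35 for each with the percentile over all probes. miR-34c-5p stood at -0.25 with quantile normalization, -0.21 with normexp, -0.28 with the brightest probe, -0.26 with the filter on all 6 arrays and with limma trend, -0.27 with array weights and -0.28 to -0.22 over the leave-outs. miR-34b-5p stood at -0.22 with normexp, -0.25 with array weights and -0.32 to -0.16 over the leave-outs. miR-34a-3p stood at 0.41 without scaling, 0.37 with spike-ins, 0.56 with the total gene signal, 0.17 with array weights and 0.18 with the higher floor. It stood lower, at 0.085, 0.15 and 0.11, with the percentile over all probes, median scaling and quantile normalization. Over the leave-outs it was 0.17 to 0.20. With normexp it was -0.073, where the median over all tested miRNAs was -0.071. miR-34a-5p stood at -0.079, -0.014 and -0.017 with the percentile over all probes, median scaling and quantile normalization, and at 0.0027 to 0.058 over the leave-outs. The cause was not tested for any of these, beyond what a constant scaling does by construction. The total gene signal of miR-34a-3p, used in the 0.56 and the -0.54, left out the 17-base probe on control arrays 1 and 3 only. Neither floor setting changed a member's value.

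The count of 12 calls over all miRNAs became 0 with the percentile over all probes, 0 with no filter (38 of 719 at unadjusted p under 0.05), 52 without scaling, 46 with spike-ins, 24 with normexp (23 lower), 28 with array weights and 7 with the higher floor, and 1 to 33 over the leave-outs: 33 without control replicate 3, 3 without control replicate 2, and 5, 1 and 4 without IL-8 replicates 1, 2 and 3. Same-numbered arrays deviated together only in part (r = 0.24, 0.32 and 0.079), and differently numbered arrays had r from -0.60 to 0.35. With 3 arrays per group these values cannot decide whether the numbers pair the samples. With the replicate block 3 miRNAs were called and no member. Over the 22 alternatives, miR-34c-5p passed the threshold in 8, miR-34b-5p and miR-34a-3p in 4 each and miR-34a-5p in 0. Calls over all tested miRNAs ranged from 0 to 52 there, and nothing is read from the members' counts. The p53-responsive median turned to 0.20 without scaling and 0.16 with spike-ins, and the p53-targeting median to -0.043, -0.028 and -0.015 with the percentile over all probes, normexp and brightest probe. Signal over background limits miR-34a-3p, whose 17-base probe was well above background on 1 array only.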

Other observations

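The scanner software also writes a total gene signal per miRNA, the sum over a miRNA's probes that it calls detected. For miR-34a-3p this total was 14.4, 23.9 and 16.6 on control arrays 1, 2 and 3, and 31.8, 30.9 and 30.6 on the IL-8 arrays. On 2 of the 3 control arrays (replicates 1 and 3) it equalled the 18-base probe's own total, and on the other 4 arrays it was the sum of both probes. The log2 change of miR-34a-3p was 0.56 from these totals and 0.18 from the 18-base probe alone. For miR-34a-5p, miR-34b-5p and miR-34c-5p the total held both probes on all 6 arrays, and their changes from it were 0.023, -0.24 and -0.25. The sums of both probes on control arrays 1 and 3 were 21.3 and 23.3.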
